A study of Mus musculus with 8 samples.

Results

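BMAL1 (encoded by Arntl), CLOCK and NPAS2 are the transcriptional activators of the mammalian circadian clock, and their transcripts were followed through 2 days in the suprachiasmatic nucleus (SCN), the pacemaker of the hypothalamus. The rows were taken by gene symbol: 3 of the 20741 genes on the sense strand, the same 3 genes on the opposite strand, and the introns, exons and splice junctions bearing those symbols. Arntl has 26 introns, 29 exons and 28 junctions in the tables, Clock has 20, 26 and 15, and Npas2 has 15, 21 and 23. The tables hold 176269 introns, 292239 exons and 229190 junctions in all.

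C57/BL6 mice, with no mutation or drug named in the labels and no age given, were kept on 12 h of light and 12 h of darkness for 3 weeks and then moved to complete darkness. Polyadenylated SCN RNA of 3 mice was pooled for each time and sequenced with a strand-preserving kit, giving 8 libraries, 1 every 6 h. By circadian time (CT, hours of the internal day) there are 4 groups of 2 libraries. The animals' subjective day is covered by CT4 and CT10, and their subjective night by CT16 and CT22. Libraries titled 22 to 40 h belong to the first cycle and are numbered replicate 1, and those titled 46 to 64 h belong to the second and are numbered replicate 2. Each library is a single pool taken at its own time, so every p-value here rests on the spread between pools, not between mice. In the fits that spread is mostly between pools 24 h apart, moderated by that of other genes. In the ratio tests it also includes differences between circadian times. The labels put the start of collection at CT18, while the earliest library is titled CT22.

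Each library held 11123610 to 11131890 sense gene reads, near-equal because depth was equalised before deposit. All 13 SCN neuron markers had reads in each library, with a summed level of 867 to 1566 normalized counts (CPM, reads scaled by library size). Markers of oligodendrocytes, the myelin-forming cells of nearby tracts, were also present and uneven, from 5112 to 15983 CPM in sum. They were lowest in CT4 replicate 1 and highest in CT16 replicate 2. CT4 replicate 1 stood apart in other tissue markers as well, with 97.6 CPM of meningeal markers against 276 to 561 elsewhere and 174 CPM of ependymal and choroid plexus markers against 77.1 to 111. Apart from refits with the oligodendrocyte marker level as a term, the part of these markers in the results below was not tested. In pooled tissue, fewer cells of a type and less RNA per cell cannot be told apart.

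In the textbook clock, BMAL1 pairs with CLOCK or NPAS2 through their shared bHLH and PAS domains and binds E-boxes in the Per, Cry, Nr1d1 and Dbp genes, whose transcripts then rise in the day. PER and CRY proteins return to inhibit the pair. A second loop acts on Arntl itself: REV-ERB proteins (Nr1d1, Nr1d2) repress it and ROR proteins (such as Rora and Rorb) activate it through a shared element, the RORE. NPAS2, best known from the forebrain, can stand in for CLOCK in the SCN.

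The element that joins this second loop to Arntl can be read in its promoter. RefSeq promoter windows (GRCm38.p6, 250 bases before to 50 after a start) hold 2 windows for Arntl, 3 for Clock and 1 for Npas2. Both strands were searched for AAAGTAGGT, the core as known from Arntl's own elements, so that its presence there was given and is shown only to locate it. Of 32851 windows of this length 60 hold these letters (0.183%), both Arntl windows included. The window of the more downstream Arntl start holds the core in 2 places, shown here in capitals on the plus strand, at positions -10 and 27 from that start, in chr7:113207492-113207520 and chr7:113207528-113207556.
Arntl RORE 1: attggtcggAAAGTAGGTtagtggtgcga
Arntl RORE 2: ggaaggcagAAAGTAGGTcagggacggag
The shorter RORE form TAGGTCA, which overlaps the second of these sites, was in 2.61% of windows, 1 of the 2 Arntl windows included. The E-box CACGTG (7.15% of windows), its variant CACGTT (4.68%), the RORE form TGGGTCA (3.98%), the D-box TTATGTAA (0.938%) and the cAMP element TGACGTCA (1.79%) were found in none of the 6 windows. No Clock or Npas2 window matched any of the 7 motifs. These are matches of letters in a short window and say nothing of binding.

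Arntl was lowest at CT10 and highest in the night in both cycles. Arntl (ENSMUSG00000055116, mm9 chr7:120350961-120457702, plus strand) had 45.0 and 39.4 CPM at CT4, 32.6 and 36.9 at CT10, 50.01 and 40.9 at CT16, and 48.7 and 60.7 at CT22, replicate 1 first. Both CT10 libraries lay below the 6 others, as they did for 7.77% of the 15217 tested genes. The means were 34.8 ± 3.05 CPM (SD, n = 2) at CT10 and 54.7 ± 8.49 at CT22, and the CT22 to CT10 ratio was 1.49 in the first cycle and 1.64 in the second. Day and night values overlapped, as CT4 replicate 1 exceeded CT16 replicate 2. The 3 other day libraries lay below all 4 night libraries. Oligodendrocyte markers were lowest in CT4 replicate 1 and highest in CT16 replicate 2, and whether this bears on the overlap was not tested.

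Clock showed the flattest profile of the 3. Clock (ENSMUSG00000029238, chr5:76639401-76733830, minus strand) had 79.1 and 91.8 CPM at CT4, 70.2 and 80.2 at CT10, 90.2 and 102 at CT16, and 88.0 and 97.9 at CT22. Each second-cycle library was above its partner of the first cycle, and CT10 was the lowest and CT16 the highest time in both cycles. The CT16 mean of 96.2 ± 8.52 CPM (SD, n = 2) and the CT22 mean of 92.9 ± 6.99 lay within each other's spread.

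Npas2 had the lowest gene-count CPM and the widest range relative to its level. Npas2 (ENSMUSG00000026077, chr1:39250549-39420217, plus strand) had 12.3 and 8.19 CPM at CT4, 8.26 and 11.1 at CT10, 14.2 and 13.3 at CT16, and 17 and 17.4 at CT22, from 91 to 191 reads in a library. All 4 day libraries lay below all 4 night libraries, the nearest being 12.3 and 13.3 CPM. Over all tested genes 2.75% showed that separation. Its highest time was CT22 in both cycles, and its lowest was CT10 in the first and CT4 in the second.

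**Figure D1:**
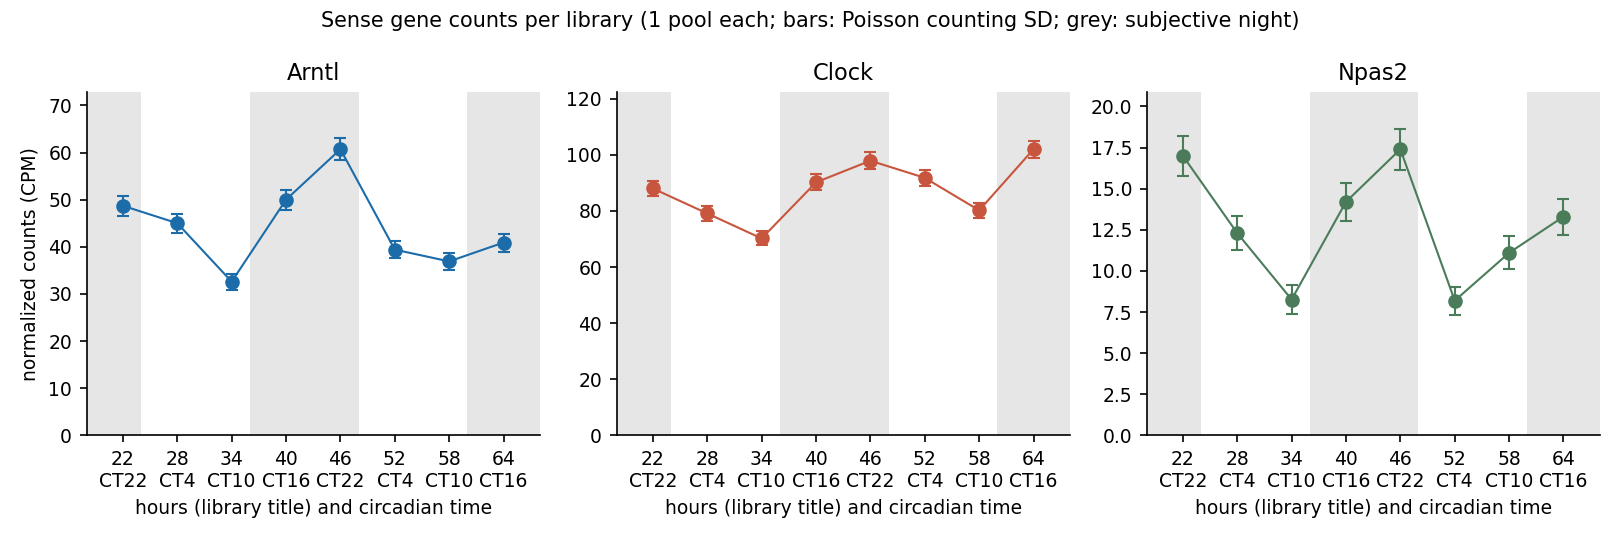
Normalized counts (CPM, y axis from 0, a separate scale for each gene) of Arntl, Clock and Npas2 in the 8 libraries, plotted against the hour in the library title and its circadian time; each point is 1 pool, bars are the Poisson counting SD, and grey bands mark the subjective night. All 3 genes dip in the subjective day of both cycles, from 60.7 to 32.6 CPM at the extremes for Arntl, 102 to 70.2 for Clock and 17.4 to 8.19 for Npas2.

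A 24-h rhythm of free phase was tested for each gene with edgeR's quasi-likelihood test over all 15217 tested genes. None of the 3 passed after Benjamini-Hochberg adjustment, where 17 genes did (0.112%). At an unadjusted p under 0.05, 2 of the 3 passed (Arntl and Npas2), as did 8.60% of all tested genes. DESeq2 called 98 genes and also none of the 3. With no filter on low counts, Arntl passed in edgeR (adjusted p = 0.0276) among 362 of 20741 genes (1.75%).

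The fitted peaks of the 3 activators lay in the subjective night, though none of the 3 passed the 24-h test. The share of all tested genes with a fitted peak there was not counted. For Arntl the fitted peak-to-trough ratio was 1.58-fold (log2 0.66 ± 0.16, SE) with a peak at CT21.4 ± 0.905 h (adjusted p = 0.319 by edgeR). For Npas2 it was 1.91-fold (log2 0.93 ± 0.25) with a peak at CT20.2 ± 1.01 h (adjusted p = 0.385 by edgeR). For Clock it was 1.27-fold (log2 0.35 ± 0.14) with a peak at CT20.0 ± 1.48 h (adjusted p = 0.595 by edgeR). The 3 peak times had overlapping standard errors, and their difference was not tested. The median fitted ratio of all tested genes was 1.23-fold, so the Clock value was close to that of a typical gene. In a ranking of all tested genes by p, Arntl stood at 125, Npas2 at 234 and Clock at 1682. The authors' deposited table gives an adjusted p of a JTK rhythm test of 0.0565 for Arntl, 0.0565 for Npas2 and 0.715 for Clock, with a q-value of 1 for each.

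In gene counts the fitted differences were larger between day (CT4 and CT10) and night (CT16 and CT22) than between dusk and dawn, which was not tested. The day minus night difference was -0.38 ± 0.11 on the log2 scale (SE) for Arntl (38.5 ± 5.15 CPM by day and 50.1 ± 8.16 by night, SD, n = 4 each), with an adjusted p of 0.332 by edgeR. It was -0.63 ± 0.18 for Npas2 (9.97 ± 2.07 and 15.5 ± 2.00 CPM, n = 4 each), with an adjusted p of 0.310 by edgeR. It was -0.24 ± 0.10 for Clock (80.3 ± 8.85 and 94.6 ± 6.64 CPM, n = 4 each), with an adjusted p of 0.557 by edgeR. All 3 values had an unadjusted p under 0.05 and were lower by day, as was the case for 4.97% of tested genes. After adjustment 16 genes passed on this axis (0.105%), none of them an activator.

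The differences between dusk (CT10 and CT16) and dawn (CT22 and CT4) were -0.27 ± 0.11 on the log2 scale (SE) for Arntl, -0.20 ± 0.17 for Npas2 and -0.07 ± 0.10 for Clock, with adjusted p of 0.586, 0.802 and 0.886 by edgeR, where 3 genes (0.0197%) passed. In none of the 3 activators did all 4 dusk libraries lie below all 4 dawn libraries, which 1.95% of tested genes showed. Some cell-type marker sums differed on this axis, which was not tested. Oligodendrocyte markers summed to 8211 to 15983 CPM at dusk and 5112 to 10548 at dawn, ranges that overlapped. SCN neuron markers summed to 867 to 1072 at dusk and 1112 to 1566 at dawn, with no overlap. All other marker lists overlapped, such as astrocytes (4678 to 5487 at dusk and 4454 to 5364 at dawn). With the oligodendrocyte marker level as a term, the dusk minus dawn values of Arntl (-0.18 ± 0.13) and Npas2 (-0.13 ± 0.21) moved by 1.5 times or more and that of Clock was -0.08. With the same term the day minus night values were -0.40 for Arntl, -0.24 for Clock and -0.65 for Npas2. The dusk minus dawn values also rest on single libraries. That of Npas2 was -0.34 without CT4 replicate 2, -0.33 without CT10 replicate 2 and -0.12 without CT4 replicate 1, and that of Clock ran from -0.13 without CT16 replicate 2 to -0.01 without CT10 replicate 1 or CT4 replicate 2. That of Arntl ran from -0.34 to -0.21.

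The second cycle differed from the first by 0.19 ± 0.09 on the log2 scale (SE) for Clock, by 0.00 ± 0.12 for Arntl and by -0.05 ± 0.18 for Npas2, with an adjusted p of 0.999 by edgeR for each. No tested gene passed on that term (0%). Likewise a 12-h term passed in no gene (0%), with adjusted p of 0.993 for Arntl, 0.809 for Clock and 0.909 for Npas2 by edgeR.

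**Figure D2:**
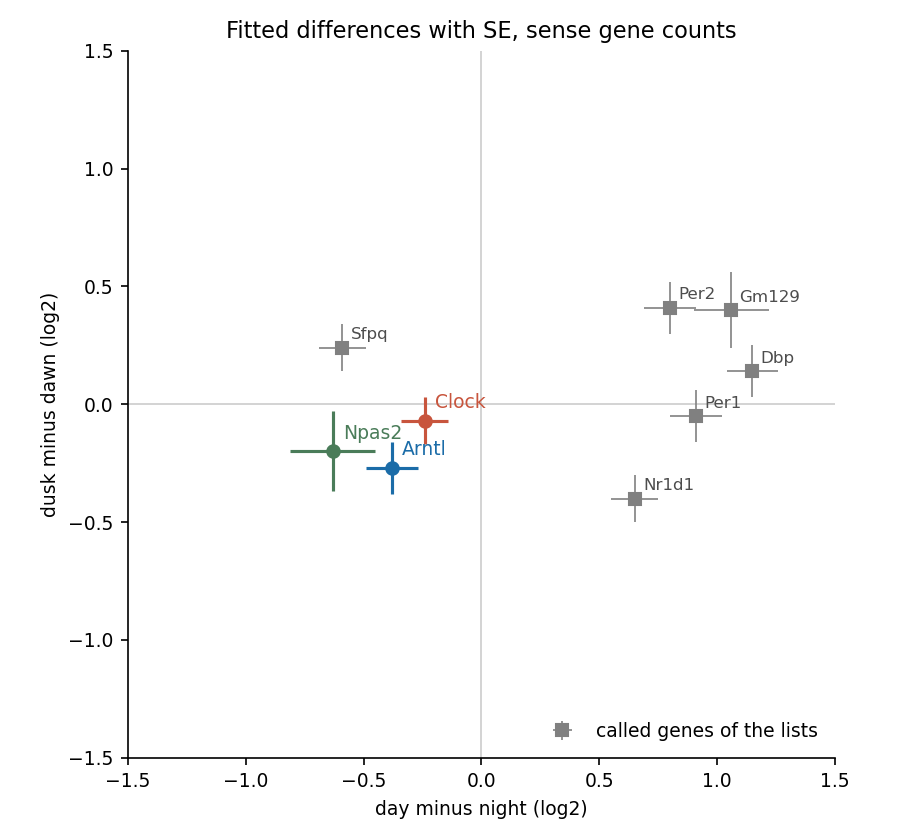
Fitted day minus night (x axis) and dusk minus dawn (y axis) differences in log2 units with standard errors, for the 3 activators (coloured circles) and the listed clock genes and coregulators that passed the 24-h test (grey squares). The activators lie left of 0, at -0.38, -0.24 and -0.63, and the 5 called E-box targets lie right of it, between 0.65 and 1.15.

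Balance between the partners was examined through ratios within a library, which do not depend on scaling. The log2 ratio of Npas2 to Clock reads was -2.68 and -3.48 at CT4, -3.08 and -2.84 at CT10, -2.66 and -2.94 at CT16, and -2.37 and -2.49 at CT22. Its day mean was -3.02 ± 0.35 (SD, n = 4) and its night mean -2.61 ± 0.25, and the ranges overlapped. An exact two-sided permutation test of the difference of -0.41 gave p = 0.114, or 0.343 after adjustment over 6 ratio tests. Without CT4 replicate 2 the difference was -0.25. The ratio of Arntl to Clock ran from -1.32 to -0.69 and differed by -0.14 between day and night (exact permutation p = 0.429, adjusted 0.643). That value was -0.27 without CT16 replicate 2, -0.22 without CT4 replicate 1, -0.08 without CT4 replicate 2 and -0.06 without CT22 replicate 2.

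Arntl to Npas2 was the mirror case, at 1.96 ± 0.23 by day and 1.69 ± 0.15 by night (log2, SD, n = 4 each; exact permutation p = 0.114, adjusted 0.343). Without CT4 replicate 2 the difference of 0.27 became 0.17. With 4 libraries against 4 the smallest p such a test can give is 0.0286. A ratio cannot reach it on both axes, so at most 3 of the 6 tests can, and the smallest adjusted p that this allows is 0.0571. No outcome could have passed at 0.05, and the ratios are given as a description.

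**Figure D3:**
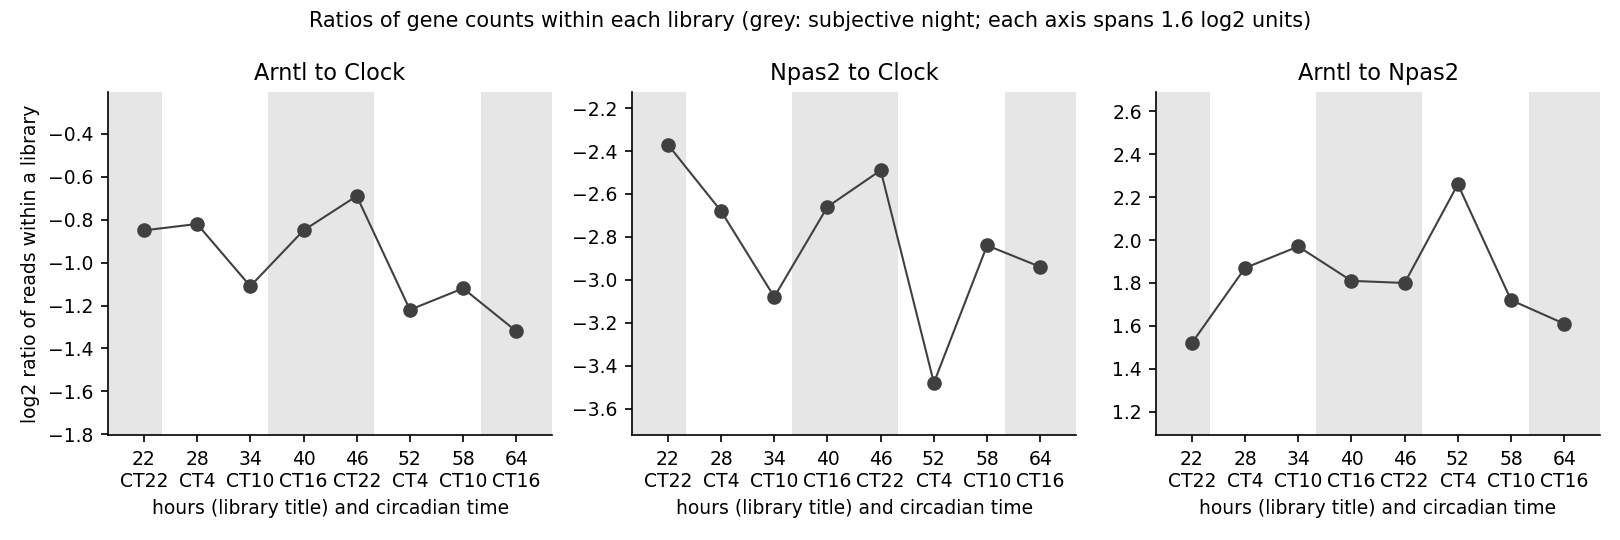
Log2 ratio of read counts of 2 genes within each library (y axis, every panel spanning the same range) against the hour in the library title and its circadian time; grey bands mark the subjective night and each point is 1 pool. The Npas2 to Clock ratio is highest in both CT22 libraries (-2.37 and -2.49) and lowest at CT4 of the second cycle (-3.48).

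Where the reads lie in each transcript set Clock apart. Clock reads came almost wholly from its 3′-terminal exon (mm9 chr5:76640732-76645903, 5172 bases), which held 5892 of 6038 reads on non-overlapping Clock exons, or 97.6% (95% Wilson interval 97.2 to 97.9, counting error only). That exon had 1139 reads per kb, and the other 21 exons together, which carry most of the coding sequence, had 146 reads or 57.3 per kb. It held 625 to 870 reads in a library, while the other exons held 8 to 35.

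Splice junctions told the same of Clock. Its 15 junctions held 62 reads, 0.797 for every 100 gene reads. Among 5158 genes with at least 1000 reads and at least 10 exons the median was 35.6, and 0.737% of them were as low. The Clock gene row also reaches 1331 bases beyond that exon. A Clock gene count in these libraries is therefore a count of the 3′ end, and the cause of the low density upstream was not tested.

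Arntl and Npas2 were covered along most of their length, with low density at the 5′ end. In its first and second exon Arntl had 50.5 and 589 reads per kb and Npas2 48.3 and 175. Npas2 also had only 217 and 161 reads per kb in the exons next to its last. The last exon of Arntl held 1359 of 6455 exon reads (21.1%), at 1862 reads per kb against 2267 in its other exons, and its 28 junctions held 2797 reads (71.1 for every 100 gene reads). The last exon of Npas2 held 655 of 1571 reads (41.7%), at 430 reads per kb against 322, and its 23 junctions held 375 reads (33.2 for every 100). A read that spans exons is counted in each, so exon sums can exceed gene counts.

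**Figure D4:**
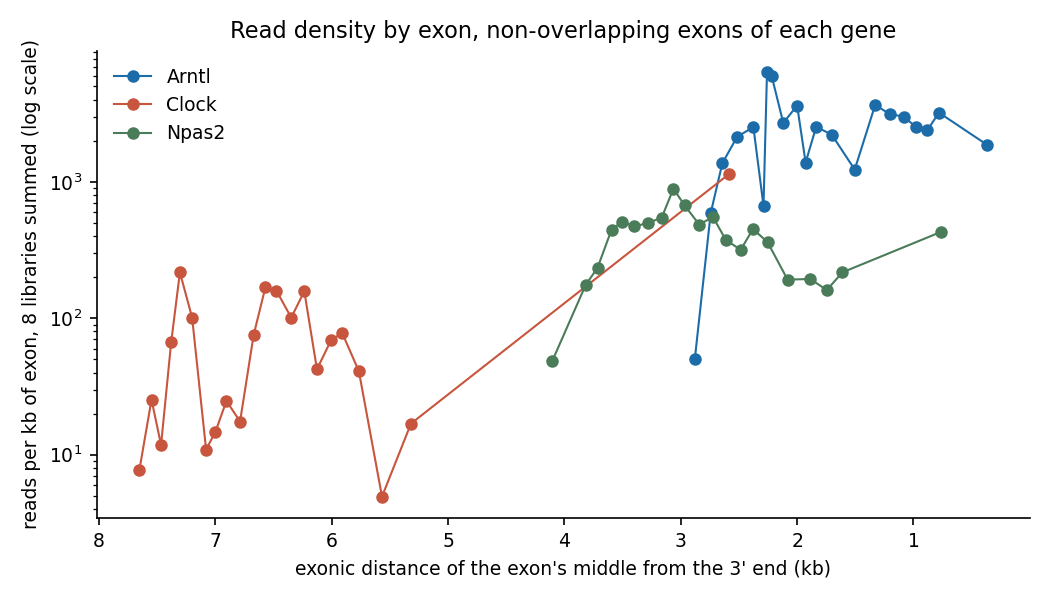
Reads per kb of exon, summed over the 8 libraries (log y axis), for each non-overlapping exon of Arntl, Clock and Npas2 against the exonic distance of its middle from the 3′ end in kb. The last Clock exon stands at 1139 reads per kb and the others average 57.3, whereas Arntl and Npas2 show no such step at their last exon (1862 and 430 reads per kb).

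The order of abundance depends on this. As gene counts per kb of non-overlapping exon, Arntl had 14.9 ± 2.97 CPM per kb (SD over 8 libraries of all times), Clock 11.3 ± 1.36 and Npas2 2.92 ± 0.801. The ranges of Arntl (10.9 to 20.4) and Clock (9.09 to 13.2) overlapped, and Npas2 (1.88 to 3.98) lay below both. By reads per junction, a measure of spliced RNA, Arntl had 12.5 in a library on average, Npas2 2.04 and Clock 0.517, with ranges of 7.46 to 17.2, 1.13 to 3.17 and 0.133 to 1.07. Thus Clock ranked above Npas2 by gene reads and below it by junction reads. The Npas2 to Clock ratio by junction reads did not keep its day-night direction (0.09, exact permutation p = 0.971, adjusted 0.971), nor did the Arntl to Clock ratio (0.29, adjusted 0.823).

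Intron reads come mostly from RNA not yet spliced, and were summed over introns of each gene that do not overlap one another. Stretches that are exonic in another form of the transcript were not removed from the introns of Arntl and Clock. Some of these reads can therefore come from spliced RNA. Npas2 introns held 449 reads: 4.76 and 5.40 CPM at CT4, 3.55 and 1.98 at CT10, 6.21 and 4.65 at CT16, and 7.61 and 6.27 at CT22. As with its gene counts, the lowest time was CT10 and the highest CT22 in the mean of both cycles. Fitted to these reads, the log2 ratio of peak to trough came to 1.29 ± 0.35 (SE), the peak fell at CT21.7 ± 1.03 h, and the test was not passed (adjusted p = 0.246 by edgeR).

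Arntl introns held 1740 reads: 23.7 and 15.4 CPM at CT4, 16.5 and 15.4 at CT10, 18.6 and 17.9 at CT16, and 23.2 and 25.8 at CT22. Libraries at CT22 were high in both cycles and CT4 was high in the first only. The fitted log2 ratio was 0.63 ± 0.20 (SE) with a peak at CT22.6 ± 1.25 h (adjusted p = 0.337 by edgeR), beside CT21.4 for the gene count. Clock introns held 239 reads, 18 to 38 in a library, and gave 0.52 ± 0.43 (adjusted p = 0.844 by edgeR). That value was 0.26 without CT10 replicate 1 and 0.86 without CT10 replicate 2. Of 13454 genes with tested introns 37 passed (0.275%), none of them an activator, and 10.5% had an unadjusted p under 0.05, Arntl and Npas2 among them.

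The introns divided between the axes in another way than the gene counts. For Arntl the intron difference was -0.26 ± 0.14 on the log2 scale (SE) between day and night and -0.36 ± 0.14 between dusk and dawn. For Clock the values were -0.17 ± 0.31 and -0.33 ± 0.31, and for Npas2 -0.69 ± 0.25 and -0.59 ± 0.25. None passed on either axis (adjusted p from 0.384 to 0.944 by edgeR), and the difference between introns and gene counts was not tested.

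Exon by exon, the day-night difference of Arntl appeared in most tested exons, but not throughout. Of its 18 tested exons 16 were lower by day, with a median of -0.38 on the log2 scale and a range from -0.83 to 0.36. The exceptions were neighbours, chr7:120435003-120435067 (0.00 ± 0.60, SE) and chr7:120436692-120436809 (0.36 ± 0.30). The first is the shortest of several overlapping forms and held 90 reads. Of its longer forms, which were not tested, chr7:120434975-120435067 held 270 reads, 128 by day and 142 by night. The other, chr7:120434925-120435067, held 125, 63 by day and 62 by night. The exons nearest the 5′ end (10 and 43 reads) were not tested. The share of all exons lower by day was not counted. None passed the 24-h test after adjustment (22 of 109588 exons did, 0.0201%) and 3 had an unadjusted p under 0.05 (5.82% of exons did). The exon with the most reads was the last (chr7:120456973-120457702, 1359 reads, day minus night -0.40 ± 0.16, SE). The lowest p of the 24-h test belonged to a 150-base exon (chr7:120438958-120439107, 332 reads, adjusted p = 0.853 by edgeR). Its log2 difference was -0.82 ± 0.31 (SE) between dusk and dawn and -0.19 ± 0.31 between day and night.

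Npas2 behaved alike at lower depth. Of its 10 tested exons 9 were lower by day (median -0.87, range -1.65 to 0.47), and none passed. Its last exon (chr1:39418700-39420223, 655 reads) had a day minus night difference of -0.50 ± 0.22 (SE), and a 119-base exon (chr1:39381285-39381403, 65 reads) one of -1.65 ± 0.68. Exons of one gene share reads and pools and are not independent. For Clock the single tested exon was the last, at -0.28 by day against night (adjusted p = 0.837 by edgeR).

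Differential use of exons within a gene was tested by diffSpliceDGE, a function of edgeR. Neither Arntl (18 exons) nor Npas2 (10 exons) passed, with an adjusted p of 1 by the Simes test on both axes, and no gene of 11604 passed on either (0%). The unadjusted Simes p ranged from 0.344 to 0.921. Clock, with 1 tested exon, could not be tested.

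**Figure D5:**
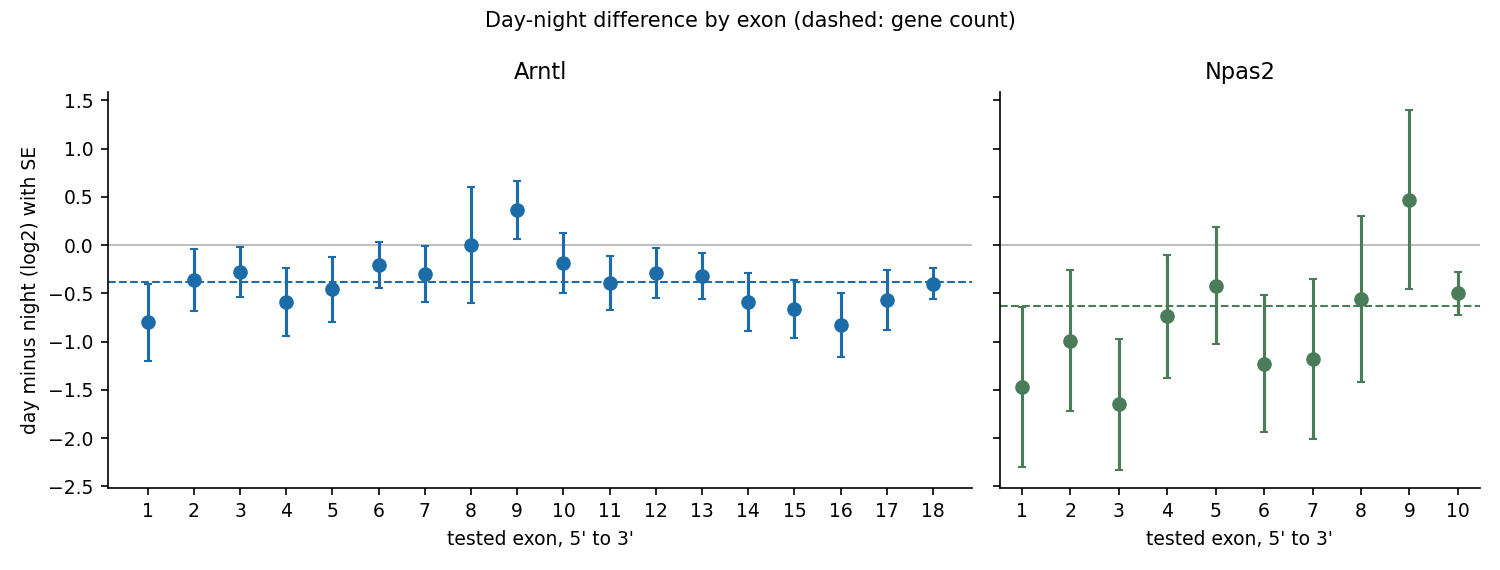
Day minus night difference in log2 units with standard errors for each tested exon of Arntl (left, 18 exons) and Npas2 (right, 10 exons), in order from 5′ to 3′; the dashed line is the difference of the gene count. Values scatter about the line at -0.38 for Arntl, while those of Npas2 have a median of -0.87, below its line at -0.63. The last exon of each has the smallest error (0.16 and 0.22).

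Junctions and single introns held few reads. Of 17 tested Arntl junctions 13 were lower by day. In the 24-h test 4 had an unadjusted p under 0.05 (4.99% of junctions did), and none passed (14 of 76245 did, 0.0184%). The most used Arntl junction (chr7:120426810-120427034) held 256 reads. The junction of lowest p in that test (chr7:120439108-120442700, 127 reads) had 49 reads by day and 78 by night. Its log2 difference was -1.25 ± 0.50 (SE) between dusk and dawn and -0.80 ± 0.50 between day and night. The second lowest p (chr7:120447927-120449531, 112 reads) went with 32 reads by day and 80 by night. Of 8 tested Arntl introns 7 were lower by day, as were both tested Npas2 introns and the single tested Clock intron, and none passed (42 of 40420 did, 0.104%). The Arntl intron of lowest p (chr7:120418268-120422970) held 68 reads and that of Npas2 (chr1:39405370-39416493) 157, with adjusted p of 0.604 and 0.634 by edgeR. Their log2 differences between dusk and dawn were -1.75 ± 0.68 and -0.91 ± 0.40 (SE). Those between day and night were -0.86 ± 0.67 and -0.53 ± 0.40. No junction of Clock or Npas2 had reads enough to be tested.

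Arntl junctions also show which forms of its transcript the SCN makes. In 4 places a donor was joined to a second acceptor by at least 10 reads. A further acceptor at one of these donors held 1 read and a second acceptor at another donor 3, and neither is described further. A small in-frame exon was included in 24 of 209 reads (11.5%, 95% Wilson interval 7.84 to 16.5), and a 3-base shift of an acceptor was used in 24 of 151 (15.9%, 10.9 to 22.6). Both are shown from the GENCODE M21 transcripts (GRCm38), matched by the lengths of neighbouring exons. Capitals mark the 21 bases of the small exon (chr7:113281402-113281422) and the 3 bases that the minor acceptor skips at the start of chr7:113299187-113299433.
Arntl 21-base exon: accaACTTGATGACTTTGCTTTTGAagaa
Arntl 3-base acceptor: caaagaaaaaagCAGatcgaaaaagcttct
Among the 4, the other minor acceptors lay 95 bases (14 of 148 reads, 9.46%) and 15 bases (12 of 124, 9.68%) from the major one.

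By day and night these shares rest on few reads. The small exon was included in 6.49% of reads by day (2.81 to 14.3) and 14.4% by night (9.41 to 21.4), and the 3-base shift in 12.5% (6.19 to 23.6) and 17.9% (11.5 to 26.8), with overlapping intervals. The 15-base acceptor took 9 of 41 reads by day (21.95%, 12.0 to 36.7) and 3 of 83 by night (3.61%, 1.24 to 10.1), with 7 of the 9 day reads in CT4 replicate 1. Without that library its day share was 2 of 29 reads (6.90%, 1.91 to 22), which overlaps the night interval. Its 3 night reads were all in CT22 replicate 2. The 95-base acceptor took 15.3% by day (8.75 to 25.3) and 3.95% by night (1.35 to 11), from 2 day libraries and from CT22 replicate 1 alone. All 7 day reads of the 3-base shift came from CT4 replicate 2, and the other day libraries held 0 of 30 (Wilson interval 0 to 11.4%). The small exon's share was 3.23% by day without CT4 replicate 2 and 9.52% by night without CT16 replicate 2. Intervals pool reads over libraries and cover counting error only, and differences between day and night in these shares were not tested.

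On the opposite strand, Clock had 79 reads, from 6 to 17 in a library. These gave no 24-h rhythm (log2 0.93 ± 0.84, SE, adjusted p = 0.897 by edgeR), and no gene of 3693 did (0%, with 3.47% at an unadjusted p under 0.05). Arntl had 0 to 8 such reads in a library and Npas2 0 or 1, too few to test.

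The regulators and targets around the activators were read from lists. Of 20 tested E-box target genes 5 passed the 24-h test, all higher by day: Nr1d1, Per1, Dbp, Gm129 and Per2. Over all tested genes 0.112% passed. At an unadjusted p under 0.05 there were 13 of the 20, beside 8.60% of all tested genes. DESeq2 called 8 of the 20, beside 98 of all 15217 tested genes. Dbp, a transcription factor of clock output, had 86.4 ± 9.19 CPM (SD, n = 2) at CT10 and 35.4 ± 4.28 at CT16, and peaked at CT7.46 ± 0.363 h (SE). The peaks of the other 4 ran from CT4.89 (Nr1d1) to CT8.80 (Per2), through CT6.79 for Per1 and CT8.39 for Gm129, an inhibitor of the activators known as Ciart. The median day minus night difference of the list was 0.26 on the log2 scale, and -0.01 over all tested genes. Without 1 library, Nr1d1 was lost in the absence of CT4 replicate 2 or CT16 replicate 2, Gm129 without either CT10 library and Per2 without CT10 replicate 2 (adjusted p from 0.0820 to 0.137 by edgeR).

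The list of regulators around the RORE held 6 tested genes, the REV-ERB and ROR genes and Nfil3, which belongs to neither family. Nr1d1 alone passed in edgeR, where 0.112% of all tested genes did. At an unadjusted p under 0.05 there were 4 of the 6 (66.7%), beside 8.60% of all tested genes. DESeq2 called 3, beside 98 of all 15217 tested genes. Nr1d1, a repressor of Arntl, was at its highest at CT4, with 98.9 ± 15.1 CPM (SD, n = 2), and at its lowest at CT16, with 47.4 ± 2.34. Its fitted ratio was 2.12-fold (adjusted p = 0.00834 by edgeR), while Arntl was lowest at CT10. The activators of the element, chosen for mention after their values were seen, did not pass: Rora had a ratio of 2.07-fold with a peak at CT4.83 (adjusted p = 0.0860) and Rorb 1.69-fold at CT1.46 (0.203), both by edgeR. The list's median day minus night difference was 0.17, Nfil3 (-0.29) included.

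Of 36 tested coregulators and modifying enzymes of the activators, 1 passed and 5 had an unadjusted p under 0.05 (13.9%, beside 8.60% of all tested genes). Sfpq, an RNA-binding corepressor partner of the PER complex, was lower by day, with 226 ± 9.76 CPM (SD, n = 2) at CT16 and 127 ± 8.57 at CT4 and a peak at CT17.5 ± 0.572 h (SE, adjusted p = 0.0247 by edgeR). It was lost in 6 of 8 fits that left out 1 library (adjusted p from 0.0538 to 0.200), both CT22 libraries being the exceptions. The median of the list was -0.06. Kinases, acetyltransferases and ubiquitin ligases acting on the activators were not called.

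The bHLH-PAS relatives showed no call. Of 16 listed, 15 were tested and none passed in edgeR or DESeq2 or had an unadjusted p under 0.05, counts near the shares of all tested genes (0.112% and 8.60%). The lowest p values belonged to Npas3 (1.40-fold, adjusted p = 0.636 by edgeR), Ncoa2 (1.19-fold, 0.713) and Arnt2 (1.17-fold, 0.748). None of 13 tested genes of heme synthesis and breakdown passed with either tool, nor at an unadjusted p under 0.05, which with so few genes is also near those shares. Heme binds NPAS2 and REV-ERB proteins, and the lowest p here belonged to Alad (1.37-fold, adjusted p = 0.622 by edgeR), Uros (1.28-fold, 0.636) and Hmox2 (1.23-fold, 0.639). DESeq2 and the unfiltered fit changed the number called over all 5 lists from 6 to 10 and 13.

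The genes most like each activator over the 8 libraries, among 11900 genes of at least 5 CPM, were found by Pearson correlation of log2 CPM, given as a description. Closest to Arntl were Tmem65 (0.98), Pcdha1 (0.97), Parm1 (0.96), St8sia2 (0.96) and Rimklb (0.95), and most opposed Pstk and Edem2 (-0.96 each). Closest to Clock were Gpbp1 and Med13 (0.97 each), Fubp1, Fcho2 and Srsf10 (0.96 each), and most opposed Ndufs3, Tubb5 and Eno1 (-0.95 each). Closest to Npas2 were Jhdm1d (0.95), Pank1, Zfp563, 5730494N06Rik and Obfc2a (0.94 each), and most opposed Cox7a2l and 2210408I21Rik (-0.95 each) and Htatip2 (-0.94). None of these genes passed the 24-h test. All such values share the same 8 pools and are the extremes of comparisons with all 11900 genes.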

How the data were processed

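The submitters' processing notes name STAR 2.3.0e and the build mm9. The authors deposited whole-number read counts per gene, intron, exon and junction, and, per the file headers, p-values and q-values of a JTK rhythm test. How reads were counted and how depth was equalised is not given in the sources used here. Exons and introns of the opposite strand were not analysed here.

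Counts with at least 10 reads in at least 2 libraries were fitted with edgeR 4.0.16 (quasi-likelihood F test, TMM scaling, R 4.3.3), with a day-night and a dusk-dawn term, 5 residual degrees of freedom and Benjamini-Hochberg adjustment at 0.05 over all features of a table. Peak time and peak-to-trough ratio come from both coefficients, with delta-method errors. Other tables used the library sizes of the sense genes. Symbols of introns, exons and junctions were brought to RefSeq symbols. Introns overlapping other introns, and exons overlapping other exons, were dropped, shortest kept first. Introns were not checked against exons. Ratios used a prior of 0.5 reads. DESeq2 1.42.0 was an alternative. Scripts were tested on simulated data. Biological variation between libraries (common coefficient) was 0.143 in genes, 0.431 in antisense and 0.193 in summed introns.

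Named genes were those of each list past the 24-h test, or else the 3 of lowest p; the 5 genes most and 3 least correlated with each activator (1 of them is not reported here); and per table the feature with most reads and those of lowest p. Activators and lists were chosen with earlier results of these data known.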

Additional observations from a re-analysis of the deposited data

How the results depend on the processing

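Of 258 refits of 21 signed results (rhythms, differences and ratios), 243 kept direction and side of the threshold. The 6 ratio tests could not pass under any setting with all libraries, so only their direction was compared. Arntl passed the 24-h test only without the filter on low counts (log2 0.66, adjusted p = 0.0276 by edgeR), where 362 of 20741 genes passed and the median prior degrees of freedom of the fit went from 10.6 to infinity. Over its alternatives the adjusted p of Arntl ran from 0.0276 to 0.749, that of Npas2 from 0.0817 to 0.775 and that of Clock from 0.451 to 0.905. The number of list genes called went from 6 to 13 without the filter and to 10 by DESeq2, and from 3 to 8 when 1 library was left out (3 without CT10 replicate 2), so single genes were lost or gained. Exon usage had an adjusted p of 1 in all 38 refits. Leaving libraries out of the Arntl acceptor shares was chosen after seeing the data, and 4 of 32 such shares left the interval of the full set. The second minus first cycle value of Arntl, 0.00, became -0.00 with RLE size factors or DESeq2 and -0.01 without the filter, and ran from -0.08 to 0.08 with 1 library left out. That of Npas2, -0.05, became 0.01 with the oligodendrocyte marker level as a term and ran from -0.21 to 0.09. With junction reads in place of gene counts the day minus night log2 ratio of Arntl to Clock became 0.29 and that of Npas2 to Clock 0.09. With 1 library left out, the dusk minus dawn ratio ran from -0.37 to 0.01 for Npas2 to Clock and from -0.20 to 0.05 for Arntl to Npas2. The causes were not tested. The labels give no replicate numbers. Pairing the libraries of a cycle, with cycle as a block in the fit, changed no call of the activators (log2 0.66 for Arntl, adjusted p = 0.372 by edgeR). Counting error of a library was 3.87 to 5.22% for Arntl and 7.24 to 10.5% for Npas2, beside a common coefficient of variation between libraries of 0.143 in genes. Single exons and junctions held fewer reads than their genes and so had a larger counting error. How far depth limits the results was not tested.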
